A study of Mus musculus with 12 samples.

Results

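The loci of 10 genes for Eph receptors and their ephrin ligands were examined in mouse forelimb buds: the receptors Epha3, Epha4, Epha5, Epha7, Ephb2 and Ephb3 and the ligands Efna2, Efna5, Efnb1 and Efnb2. A locus was the gene body on mm10 plus 100 kb to either side, and its members were the rows of the 12 deposited peak lists whose summit, the position of highest coverage in a peak, lay in that window. In the β-catenin lists of wild-type controls these windows held 80 of 20203 summits in replicate 1, 93 of 25836 in replicate 2 and 65 of 16238 in the consensus list of both, and in all 12 lists together 740 of 268431. Embryos were wild-type Swiss Albino mice, injected through the mother at E10.5. The pregnant females received 10 µg per g body weight of Wnt-C59 (C59), an inhibitor of the acyltransferase porcupine that stops secretion of WNT ligands, or its solvent DMSO (wild-type controls). Forelimb buds were collected 6 h later for chromatin immunoprecipitation followed by sequencing (ChIP-seq). Each antibody had 2 replicates under either treatment, and each was a pool of 20 buds from whole tissue. Binding was measured on chromatin of mixed cells, so fewer cells with a bound site and less binding per cell cannot be told apart, and transcripts are not part of these data.

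Eph receptors are receptor tyrosine kinases, and their ephrin ligands are held on the surface of neighbouring cells, so that signalling needs cell contact and can run into both cells. A-class ephrins are anchored to the membrane by a lipid and mainly bind EphA receptors, whereas B-class ephrins cross the membrane and mainly bind EphB receptors, with EphA4 binding both classes. In limb buds this system is known for cell sorting, for the adhesion of mesenchymal cells and for guiding motor axons. β-Catenin is the nuclear effector of canonical WNT signalling and reaches DNA through TCF/LEF factors, whose sites share the core ATCAAAG or TTCAAAG. H3K27ac, the acetylation of lysine 27 of histone H3, marks active promoters and enhancers.

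The 200 bp around a wild-type β-catenin consensus summit were searched for either core on both strands. The windows below, read from the plus strand of GRCm38, belong to the cored summits with a fold enrichment of at least 10, which lay at Epha3, Ephb2 and Efna5. Capitals mark the cores.
Epha3, downstream flank, chr16:63452429-63452628: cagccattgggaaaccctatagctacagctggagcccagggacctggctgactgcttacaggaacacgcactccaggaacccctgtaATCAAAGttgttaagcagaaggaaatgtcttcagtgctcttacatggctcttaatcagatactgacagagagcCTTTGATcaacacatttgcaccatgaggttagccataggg
Epha3, intron, chr16:63615438-63615637: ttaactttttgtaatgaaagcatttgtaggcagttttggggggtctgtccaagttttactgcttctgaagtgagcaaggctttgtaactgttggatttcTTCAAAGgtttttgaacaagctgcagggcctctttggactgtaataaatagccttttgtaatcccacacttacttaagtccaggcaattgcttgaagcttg
Ephb2, intron, chr4:136760937-136761136: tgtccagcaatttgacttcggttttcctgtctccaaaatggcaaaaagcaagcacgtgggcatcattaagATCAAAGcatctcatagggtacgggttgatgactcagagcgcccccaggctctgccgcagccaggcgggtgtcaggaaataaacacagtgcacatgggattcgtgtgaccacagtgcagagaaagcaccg
Efna5, intron, strongest, chr17:62836756-62836955: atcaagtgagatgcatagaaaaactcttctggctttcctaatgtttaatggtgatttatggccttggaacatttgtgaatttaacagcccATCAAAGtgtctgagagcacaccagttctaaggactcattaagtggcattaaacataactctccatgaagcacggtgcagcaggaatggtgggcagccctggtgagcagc
Efna5, intron, second, chr17:62736031-62736230: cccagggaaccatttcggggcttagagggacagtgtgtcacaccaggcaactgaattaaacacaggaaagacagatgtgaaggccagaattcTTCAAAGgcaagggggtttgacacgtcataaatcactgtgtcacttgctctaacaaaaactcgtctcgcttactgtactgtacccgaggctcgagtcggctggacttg

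A core on the minus strand reads CTTTGAT here. The Epha3 flank window held 2 cores, centred 10 bp to the left and 63 bp to the right of the summit. The core of the strongest Efna5 window lay 7 bp from its summit. Strong summits without a core are shown by the summit in an Epha3 intron that was also called after C59 and by the strongest summit of the Epha4 locus.
Epha3, intron, no core, chr16:63602449-63602648: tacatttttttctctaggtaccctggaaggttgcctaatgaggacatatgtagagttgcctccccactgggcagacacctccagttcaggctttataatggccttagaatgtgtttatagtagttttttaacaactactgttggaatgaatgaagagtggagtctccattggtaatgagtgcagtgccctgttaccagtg
Epha4, downstream flank, no core, chr1:77289644-77289843: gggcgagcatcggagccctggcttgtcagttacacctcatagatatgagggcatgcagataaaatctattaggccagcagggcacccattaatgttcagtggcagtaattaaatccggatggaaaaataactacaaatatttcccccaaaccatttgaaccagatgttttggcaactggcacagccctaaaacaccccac

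Over the 10 loci, 22 of the 65 wild-type summits held a core, a share of 33.8% (95% Wilson interval 23.5 to 46.0%). The share was 28.6% among all 16193 wild-type consensus summits on chromosomes 1 to 19, X and Y (27.9 to 29.3%), which lies inside the interval of the loci. In windows 2 kb to either side of the same summits, 10% held a core at the loci (13 of 130) and 8.69% over all summits. The 27 cores at the loci lay a median of 18 bp from the summit, and 21 of them lay within 50 bp. Of the 11 summits with a fold of at least 10, 5 held a core, against 17 of the 54 weaker summits (31.5%), and the corresponding shares over all summits were 40.4% and 25.5%. Intervals cover counting error only, and neighbouring summits can share a peak. The homeodomain word TAATTA was found in 14 of the 65 windows (21.5%, 13.3 to 33.0%) and in 14.8% of all windows. The word CAGCTG was found in 10 of the 65 (15.4%, 8.58 to 26.1%) and in 18.8% of all. For both words the share over all windows lies inside the interval of the loci.

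**Figure D1:**
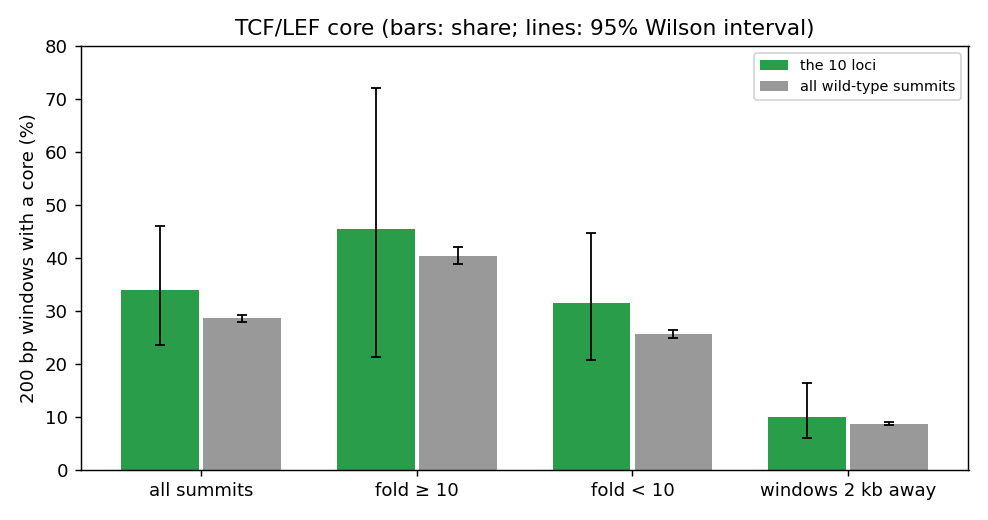
Share of 200 bp windows with a TCF/LEF core (y axis, percent) at the 10 loci (green) and over all wild-type β-catenin consensus summits (grey), with lines for 95% Wilson intervals. The loci stood at 33.8% and all summits at 28.6%, and the windows 2 kb away at 10% and 8.69%.

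The tissue and depth of the lists were checked before the loci were compared. Wild-type H3K27ac was listed at the promoters of the limb mesenchyme markers Prrx1, Twist1 and Msx1 and of the forelimb gene Tbx5, and none was listed at the blood, neural and liver markers or at the 3 markers of limb ectoderm and its ridge. Of the hindlimb genes, Tbx4 had a promoter peak and Pitx1 had none. The β-catenin libraries held an estimated 2.93 and 3.39 gigabases of fragments with DMSO and 3.42 and 3.40 gigabases with C59, as read back from the background coverage in the deposited values. The β-catenin depth was therefore not lower after C59. The H3K27ac libraries held 5.03 and 5.39 gigabases with DMSO and 5.93 and 5.56 with C59, so both C59 libraries were deeper. The part of this depth in the H3K27ac comparisons was not tested. The β-catenin C59 lists had a stricter limit, since their lowest −log10 p was 5.69 and 5.72 against 3.89 and 3.79 in wild-type controls. The fewest fragments over any listed C59 β-catenin summit were 11. An unlisted site after C59 can thus still hold some fragments, and no listed peak does not show absence of binding.

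β-Catenin summits were fewer after C59 at all 10 loci. Wild-type controls listed 80 and 93 summits and the C59-treated buds 3 and 0, means of 86.5 ± 9.19 and 1.5 ± 2.12 (SD, n = 2 each). Both C59 counts lay below both wild-type counts at each of the 10 genes, beside 82.8% of the 17238 protein-coding genes with a summit in such a window, so lower counts were shared with most genes. The difference of the means was −85 summits, with p = 0.333 in a 2-sided exact permutation test, the smallest p that 2 against 2 libraries allow. With only wild-type rows as significant as −log10 p of 5.72 kept, 67 and 78 summits remained against 3 and 0. Of the 65 wild-type consensus summits, 57 exceeded that limit in both replicates.

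The 6 receptor loci held 47 and 53 summits with DMSO and 2 and 0 with C59. The 4 ephrin loci held 33 and 40 against 1 and 0. By class, the EphA receptors had 30 and 37 and the A-class ephrins 24 and 30, whereas the EphB receptors had 17 and 16 and the B-class ephrins 9 and 10. In each class the wild-type counts lay above both C59 counts.

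**Figure D2:**
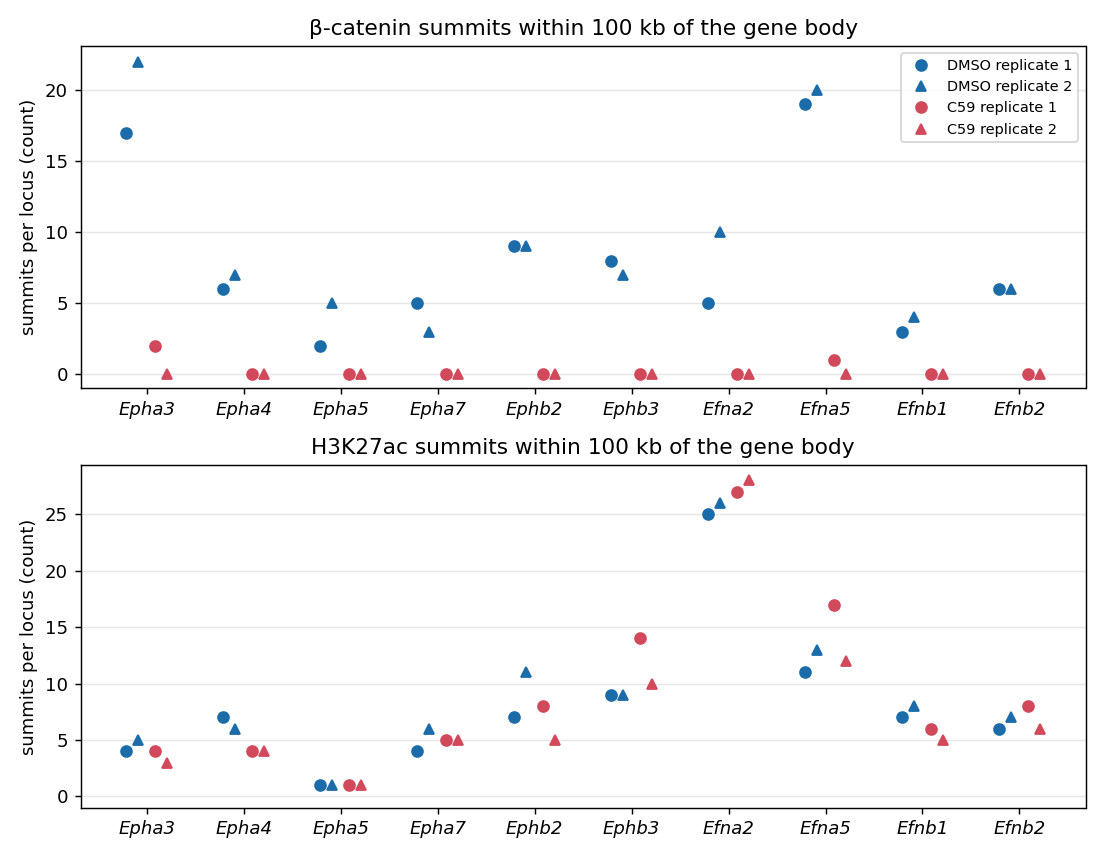
Number of β-catenin (top) and H3K27ac (bottom) summits per locus (y axis) for each gene (x axis), with DMSO libraries in blue, C59 libraries in red, circles for replicate 1 and triangles for replicate 2. β-Catenin counts reached 22 at Epha3 in wild-type controls and lay at 0 to 2 after C59, while the H3K27ac counts of the treatments mostly interleaved.

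Epha3 encodes an EphA receptor for A-class ephrins and carried the most wild-type β-catenin consensus summits of the 10 loci, although Efna5 had more in DMSO replicate 1 (19 against 17). Its window held 17 and 22 summits with DMSO, 2 and 0 with C59, and 16 in the wild-type consensus. This exceeded the count of 99.7% of the 21938 protein-coding genes, at 3.07 summits per 100 kb of window against 0.594 per 100 kb over the chromosomes. A long gene has a long window, but its density alone also exceeded 98.8% of genes. No other protein-coding gene lies in the window. Of the 16 summits, 14 were intronic, and 11 of these formed a cluster of 115 kb, from 63556684 to 63671563 on chromosome 16, in the distal part of the gene body.

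The strongest summit of all 10 loci lay beyond the 3′ end of Epha3, 412 kb from the 5′ end of the gene, at position 63452529. Its consensus fold was 21.2, and the replicates counted 68 and 119 fragments over it (folds of 15.8 and 21.5). The next in this locus were intronic summits, at 63602549 with a fold of 16.1 (81 and 75 fragments) and 63591136 with 15.7 (75 and 70 fragments). Neither of these held a core. The intronic summit at 63615538, with a core centred 2 bp from it, had a fold of 11.96 and 33 and 55 fragments.

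Epha3 was also 1 of 2 members with β-catenin at its own transcription start site (TSS). The summit at 63863491 lay 78 bp from an annotated TSS and had a fold of 11.9, with 38 and 66 fragments in the replicates. It held no core and was in no C59 peak. At 63658613 a weaker cored summit (fold 5.45, 15 and 12 fragments) was the only one of the 16 inside a wild-type H3K27ac peak.

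Efna5, the gene of the A-class ligand ephrin-A5, which is known as a repulsive guidance cue in the visual system, had the next highest consensus count. Its window held 19 and 20 summits with DMSO, 1 and 0 with C59, and 13 in the consensus, more than 99.4% of genes and at a density above 97.9% of them. No other protein-coding gene lies there either. The strongest summit, at 62836856 in an intron 44.5 kb from the 5′ end, had a fold of 18.8 with 56 and 84 fragments, and a second cored intronic summit at 62736131 had 13.3 with 42 and 53 fragments. A group of 6 intronic summits spanned 27.8 kb, and 3 of them held a core. In all, 6 of the 13 summits were cored, and none lay less than 1 kb from an Efna5 TSS.

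The remaining EphA receptors had fewer sites. Epha4, which encodes a receptor of both ephrin classes that is required for motor axon guidance into the limb, had 6 and 7 summits with DMSO and 0 in both C59 libraries. Its strongest consensus summit, at 77289744 on chromosome 1 and downstream of the gene, had a fold of 12.3, 35 and 34 fragments, and no core. The other 4 summits all held a core, with folds from 4.99 to 7.99. Epha5, known from axon mapping in the brain, had 2 and 5 summits with DMSO and none in either C59 library. Both of its consensus summits were intronic. Epha5 lay at 0.355 summits per 100 kb, below the mean of the chromosomes.

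Epha7, another receptor of A-class ephrins, had 5 and 3 summits with DMSO and none in either C59 library. Its 3 consensus summits held no core, and the strongest, upstream of the gene at 28779295 on chromosome 4, had a fold of 6.39 with 17 and 10 fragments. The 10 fragments lie below the 11 of the weakest listed C59 summit, so a site of this strength could have gone unlisted after C59.

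Ephb2 and Ephb3 encode EphB receptors that are known targets of WNT signalling in the intestinal epithelium. Ephb2 had 9 and 9 summits with DMSO and none in either C59 library. All 7 consensus summits lay in its introns, although the window also takes in 8 other protein-coding genes, C1qa and Kdm1a among them. The strongest, at 136761037 on chromosome 4, was the only one with a core and had a fold of 11.7 with 35 and 31 fragments. Of the other 6, those at 136755653 and 136761941 lay inside wild-type H3K27ac peaks.

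Ephb3 had 8 and 7 summits with DMSO and none in either C59 library, in a window of 219 kb, and its consensus density of 3.20 per 100 kb was above that of the other 9, though this order did not hold in either replicate list. Its strongest summit, at 21211012 on chromosome 16, lay 83 bp from the TSS of an internal Ephb3 transcript and had a fold of 12.49 with 40 and 46 fragments. A pair of weak summits stood at the 5′ end, 315 and 150 bp from a TSS, each with a fold of 4.49. None of these 3 held a core. The locus thus held 3 of the 4 summits within 1 kb of a member's own TSS, the fourth being that of Epha3.

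The B-class ligand loci had no summit with a fold of 10. Efnb2, whose product ephrin-B2 is known as a marker of arterial endothelium, had 6 and 6 summits with DMSO and none in either C59 library. Its strongest consensus summit, 79.4 kb from the 5′ end and beyond the 3′ end at 8581820 on chromosome 8, had a fold of 8.97 with 23 and 27 fragments and no core. Efnb1, mutated in craniofrontonasal syndrome, had 3 and 4 summits with DMSO and none in either C59 library. Both of its consensus summits were intergenic, with folds of 5.72 and 5.16.

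Efna2, which encodes the A-class ligand ephrin-A2, differed from the rest in where its summits lay. The window had 5 and 10 β-catenin summits with DMSO and none in either C59 library, but it also holds 11 other protein-coding genes. All 5 consensus summits were within 1 kb of a Midn or Cirbp TSS and none was closest to Efna2, with folds from 2.62 to 5.29. The 2 weakest, at Midn, had −log10 p of 5.06 and 5.56 in the wild-type replicates, below the 5.72 of the C59 lists. Sites of this strength could have gone unlisted after C59. Of the 5 summits, none held a core. At the other 9 loci every consensus summit, 60 in all, had a TSS of the member as its nearest protein-coding TSS.

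**Figure D3:**
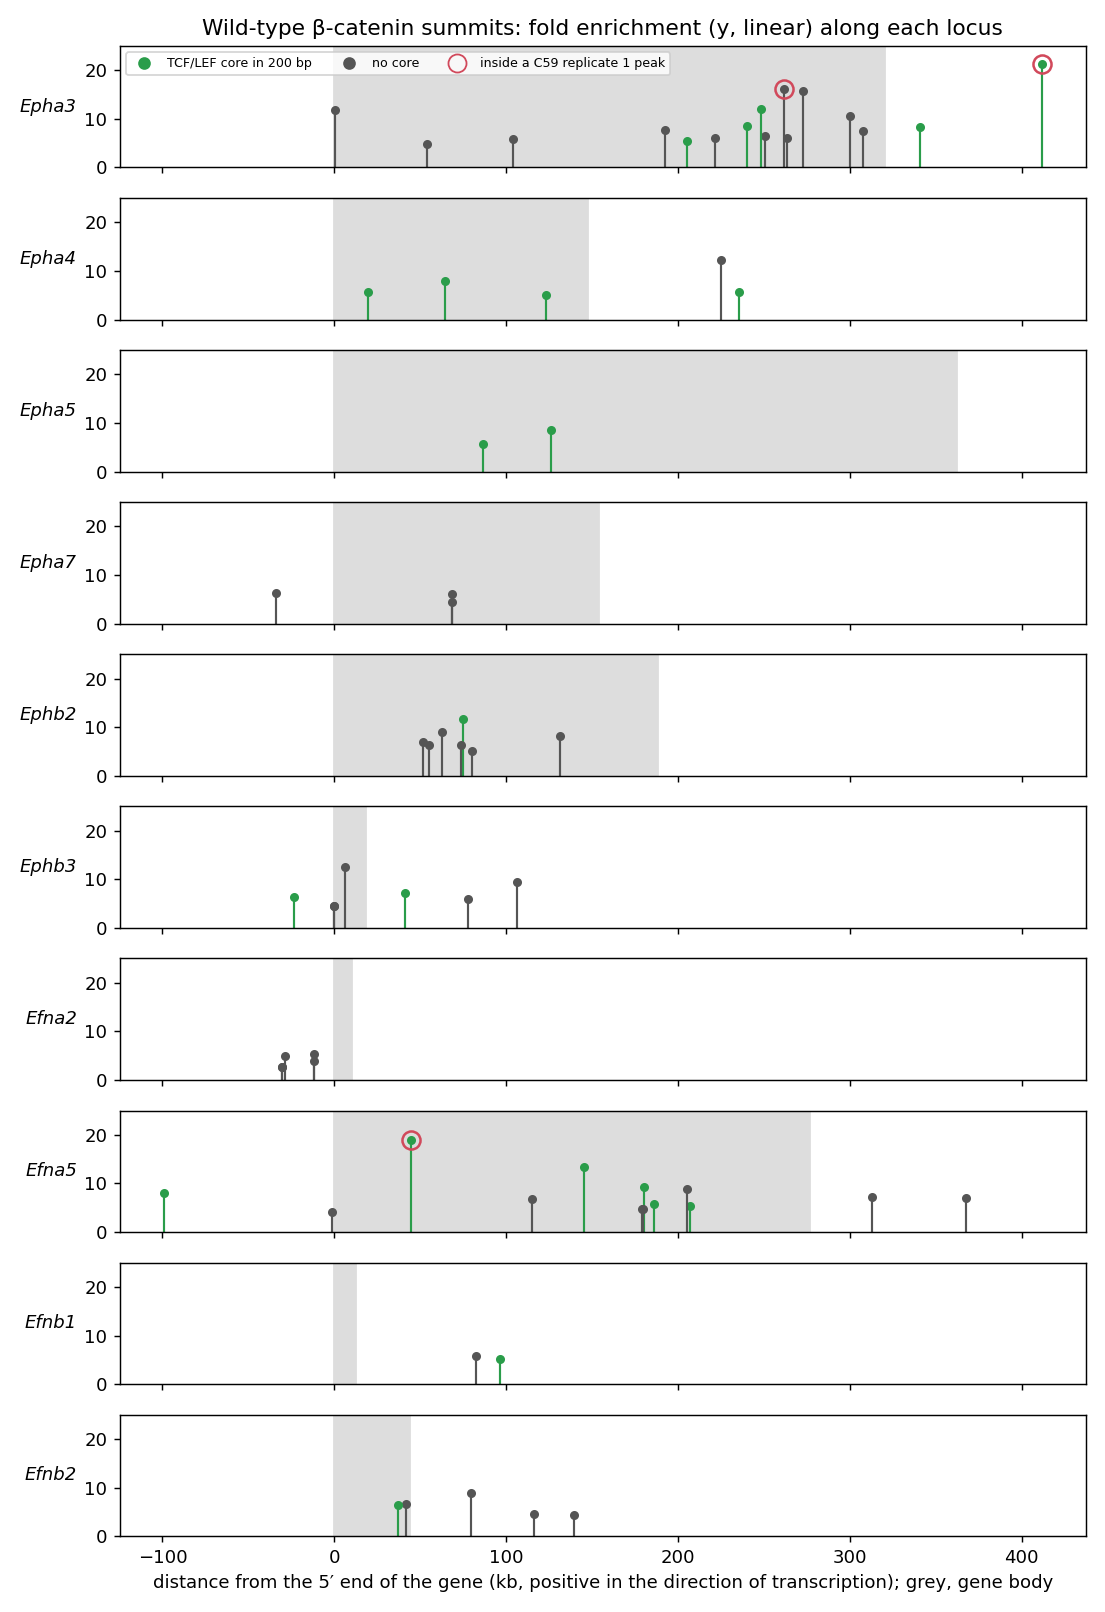
Wild-type β-catenin consensus summits by distance from the 5′ end of each gene (x axis, kb, in the direction of transcription) and fold enrichment (y axis, linear), with the gene body in grey, cored summits in green and summits inside a C59 replicate 1 peak ringed in red. The tallest lines, at 21.2 and 16.1 in Epha3 and 18.8 in Efna5, are the ringed ones.

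Across the 65 summits the median fold was 6.40, against 6.76 over all wild-type summits, and 11 (16.9%) reached a fold of 10 against 20.4% of all. Of the 65, 39 lay in introns of the member itself and 20 were intergenic. Intronic and intergenic shares over all wild-type summits were not computed, and several members are long genes. A TSS of any gene lay within 1 kb of 9 summits (13.8%, 7.46 to 24.3%), beside 16.3% of all wild-type summits. Both overall shares lay inside the 95% intervals of the loci (9.72 to 27.8% for the fold of 10).

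The few β-catenin peaks left after C59 coincided with the strongest wild-type sites. All 3 were listed in C59 replicate 1, and replicate 2 and the C59 consensus listed none, so that 0 of the 65 wild-type summits lay in a C59 consensus peak, which allows a share of up to 4.62% by a limit of 3 counts and 5.58% by the Wilson interval. Over all wild-type summits this share was 1.12%. A peak of either C59 replicate covered 3 of the 65 (4.62%, Wilson interval 1.58 to 12.7%), beside 2.30% of all wild-type summits. Over all summits, 0.513% lay in a peak of replicate 1 only and 0.710% in a peak of replicate 2 only. The peak at the Epha3 flank summit had 19 fragments and a fold of 7.07, against the 68 and 119 fragments of the wild-type replicates, and its summit lay 27 bp away. The peak at the Efna5 intronic summit had 19 fragments and a fold of 6.44, against 56 and 84, and lay 18 bp away. The peak at the intronic Epha3 summit without a core had 16 fragments and a fold of 5.81, against 81 and 75, and lay 69 bp away.

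These 3 sites had the highest folds of the 65 and were the only ones with a fold of at least 16. Over the whole wild-type list, 143 of the 682 summits with such a fold (21.0%) lay in a peak of either C59 replicate. The next, 63591136 in Epha3 with a fold of 15.7, was in no C59 peak. Of the 11 summits at the loci with a fold of at least 10, 3 were in a peak of either C59 replicate (27.3%, Wilson interval 9.75 to 56.6%), beside 7.93% of the 3302 such summits of the whole wild-type list. Among summits with folds under 10 it was 0 of 54 at the loci and 0.861% over all.

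**Figure D4:**
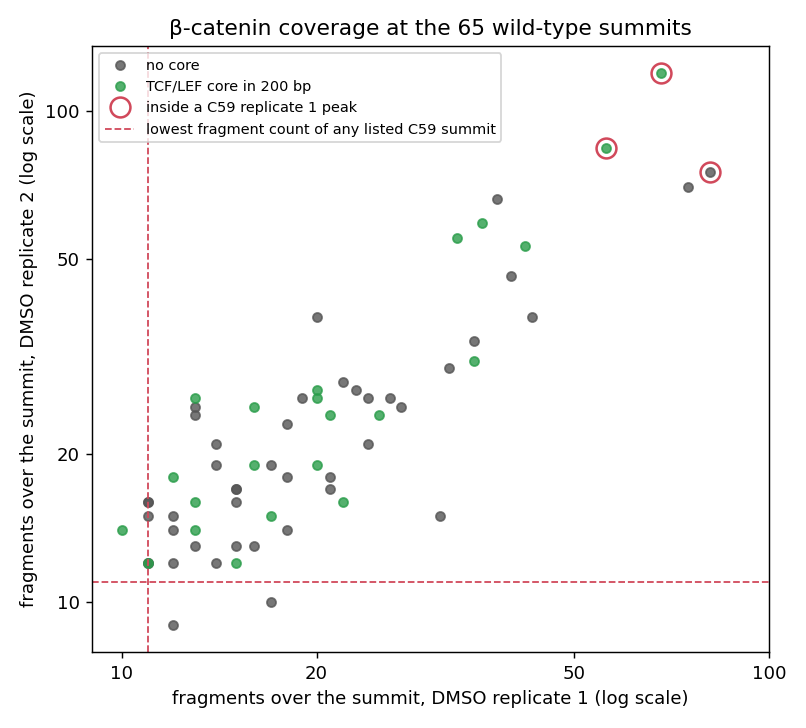
Fragments over each of the 65 wild-type β-catenin summits in DMSO replicate 1 (x axis, log scale) and replicate 2 (y axis, log scale), cored summits in green, with dashed lines at 11 fragments, the lowest count of any listed C59 summit. The ringed sites, listed in C59 replicate 1, lie at 68 and 119, 56 and 84, and 81 and 75 fragments.

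H3K27ac summits at the same loci were equally many on average under both treatments. Wild-type controls listed 81 and 92 summits over the 10 loci and C59-treated buds 94 and 79, a mean of 86.5 in both (SD 7.78 and 10.6, n = 2 each; 2-sided exact permutation test, p = 1). The treatments overlapped in these totals. At single genes, both C59 counts lay below both wild-type counts for Epha4 (7 and 6 against 4 and 4) and Efnb1 (7 and 8 against 6 and 5), 2 of 10 members beside 14.2% of genes with an H3K27ac summit in the window. Both lay above for Ephb3 (9 and 9 against 14 and 10) and Efna2 (25 and 26 against 27 and 28), again 2 of 10 beside 5.71%. The 11 neighbouring genes share the Efna2 window.

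All 10 members had a wild-type H3K27ac consensus summit less than 1 kb from one of their TSSs. The share of all genes with such a consensus summit was not computed. A promoter summit in all 4 replicate lists was found for 9 members and for 11102 of the 21938 protein-coding genes. The highest such summit in each replicate was compared. Ephb2 had the highest folds, 18.96 and 19.9 with DMSO and 21.6 and 21.7 with C59. Epha7 had 8.40 and 7.05 against 8.44 and 10.4 after C59. For both genes the C59 values lay above the wild-type ones, 2 of the 9 members with a summit in all 4 lists, beside 20.9% of 11102 such genes.

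Ephb3 had 10.1 and 9.86 with DMSO and 9.79 and 9.38 with C59, and Efnb2 had 6.87 and 7.24 against 6.37 and 6.63. For both genes the C59 values lay below, which is 2 of 9 members beside 19.7% of genes. The treatments overlapped for Epha4, Epha5, Efna2, Efna5 and Efnb1, with mean folds from 5.03 to 10.3 in wild-type controls and from 5.20 to 8.99 after C59. The log2 ratios of the mean folds lay between −0.20 for Efna2 and 0.29 for Epha7, where the median over all genes was 0.00065. The 5th and 95th percentiles over all genes were −0.343 and 0.268. Epha7 lay above the latter, and the other members with a ratio lay between them.

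Epha3 was the exception among the promoters. Its promoter H3K27ac had folds of 7.32 and 4.89 in wild-type controls (26 and 18 fragments), no listed summit in C59 replicate 1 and a fold of 4.28 (16 fragments) in C59 replicate 2. The C59 consensus therefore listed none there. The wild-type summit itself rested on few fragments, and 1 of the 2 C59 libraries still listed it. How many of all genes with a wild-type promoter summit lack one in a C59 list was not counted, so a loss particular to Epha3 is not shown.

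**Figure D5:**
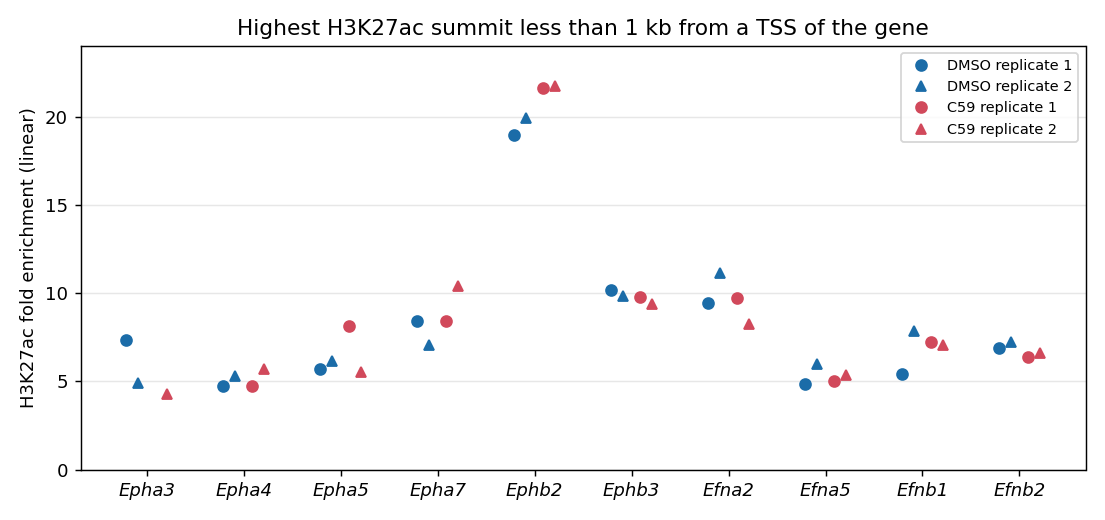
Fold enrichment of the highest H3K27ac summit less than 1 kb from a TSS of each gene (y axis, linear), with DMSO libraries in blue, C59 libraries in red, circles for replicate 1 and triangles for replicate 2. Ephb2 stands at 18.96 to 21.7 in all 4 libraries, and Epha3 has no point for C59 replicate 1.

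Some H3K27ac regions of the loci, promoters included, were in the consensus list of 1 treatment only. Of the 53 wild-type consensus regions at the loci, 3 overlapped no region of either C59 replicate, beside 4.7% of all 19966 wild-type regions. One of the 3 lay in an Ephb2 intron, with a summit at 136755732 and folds of 4.34 and 3.60 (15 and 13 fragments) in wild-type controls, and it covered the wild-type β-catenin summit at 136755653. The other two lay in the Efna2 window, 19779 and 19213 bp upstream of the nearest Efna2 TSS in an intergenic stretch. Of the 49 C59 consensus regions at the loci, 0 were absent from both wild-type replicates, beside 3.43% of all C59 regions.

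The intronic Epha3 region around 63658812, which covers a cored β-catenin summit, was listed in both wild-type replicates (folds of 3.80 and 5.15) and in C59 replicate 1 (5.27) but not in replicate 2. The Epha4 intronic region at 77389024 had folds of 4.76 and 3.94 in wild-type controls and 3.36 in C59 replicate 1 only. In both regions the C59 libraries differed from each other. Promoter H3K27ac of some marker genes also differed between treatments. With an unlisted peak counted as 0, the summed fold of Cdh5, Kdr and Pecam1 was 0 and 3.92 with DMSO. It was 7.42 and 8.14 with C59. The wild-type consensus listed 0 of 3 and the C59 consensus 2 of 3, and Kdr had no promoter peak in any list. The sum for the limb mesenchyme markers was 13.0 and 14.8 with DMSO and 17.4 and 17.8 with C59. The fold at Tbx5 was 2.18 and 2.42 against 2.60 and 2.48. Prrx1, 1 of the mesenchyme markers, overlapped (2.19 and 2.63 with DMSO, 2.41 and 2.52 with C59). The hindlimb gene Tbx4 overlapped too (3.25 and 4.63 with DMSO, 3.36 and 3.52 with C59). Of the 11102 genes with a promoter summit in all 4 lists, 20.9% had both C59 folds above both wild-type folds. The part of these differences in the H3K27ac values of the loci was not tested.

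Most wild-type β-catenin summits of the loci lay outside H3K27ac peaks, as over the whole list. Of the 65 wild-type β-catenin summits, 10 (15.4%, Wilson interval 8.58 to 26.1%) lay inside a wild-type H3K27ac consensus peak, against 22.1% of all wild-type summits, which is inside that interval. With the H3K27ac peaks extended by 1 kb, 21 of the 65 (32.3%) were covered. The Efna2 window supplied 4 of the 10, and without it 6 of 60 remained (10%, 4.66 to 20.1%). Ephb2 and Ephb3 supplied 2 each, and Epha3 and Efna5 1 each. In the C59 H3K27ac consensus peaks, 9 of the 65 positions were covered.

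Of the 12 other Eph receptor and ephrin genes, 11 had fewer β-catenin summits in both C59 libraries than in either wild-type library. The same held for 82.8% of the 17238 protein-coding genes with a summit in the window. Their windows held 36 and 48 different summits with DMSO and none in either C59 library. The highest consensus counts were 6 at Epha1, 6 at Epha10 and 5 at Efnb3, in windows with 9 or 10 other protein-coding genes each. Ephb6, a receptor without kinase activity, was the one that did not pass, with 0 and 1 summits in wild-type controls. The windows of Efna1, Efna3 and Efna4 overlap each other, and that of Epha8 overlaps the Ephb2 window.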

How the data were processed

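β-Catenin and H3K27ac ChIP-seq peak lists of 8 libraries and 4 consensus lists were used, and the 4 input samples were not used here. A DSG crosslink was added for β-catenin only. Per the labels, the authors used Cutadapt 4.1 for trimming, Bowtie2 2.4.5 for mapping to mm10 and MACS2 2.2.7.1 for peaks, which per the methods were called without input. Consensus lists came from a joint call on replicates that the authors had cleared of duplicates (Picard 2.27.4) and sampled to equal depth, keeping summits found in peaks of both. The deposited rows give a fold enrichment, a ratio of coverage to that expected in the same library, and the −log10 p-value and −log10 q-value of each summit.

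The members and lists were chosen with earlier results of these data known. Summits were counted on GRCm38 with GENCODE M21, and no peak ran past a chromosome end (0 rows). Replicates are separate pools of buds. Fragment counts over a summit and depth were recovered from fold and p (tolerance 0.01), in a procedure tested on simulated data, and a replicate value is that of the nearest summit in the replicate peak covering a consensus summit. Named were, per locus, the strongest wild-type summit, summits in C59 peaks, cored summits with a fold of at least 10, summits less than 1 kb from a TSS and the highest promoter H3K27ac summit. Of these, 1 summit is not reported here. Single features outside this rule were chosen after their values were seen. Counts were compared with exact permutation tests and shares with 95% Wilson intervals (Python 3.11.15, scipy 1.17.1, pysam 0.24.0). Alternatives covered the window, q-value and fold limits, regions, assignment, motif, overlap and replicates left out.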

Additional observations from a re-analysis of the deposited data

How the results depend on the processing

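Of 62 recomputed values, 59 kept their direction, stayed within the error of the reported value or, for counts of members, stayed close to it. The replicate block values were counted among the 59 though their differences repeat the reported ones. Most alternatives for the share called after C59 used the C59 consensus list. That list held no summit at the loci, so these alternatives could hardly move. The share of wild-type β-catenin summits inside H3K27ac was 32.3% with H3K27ac peaks extended by 1 kb and 7.5% in gene bodies alone, and the share with a core was 18.5% for the word ATCAAAG alone. The β-catenin difference ranged from −133.5 to −45 summits, the latter with only folds of at least 5 counted. With 1 replicate left out it ranged from −91.5 to −78.5 for β-catenin and from −7.5 to 7.5 for H3K27ac. In gene bodies alone 8 members instead of 10 had fewer β-catenin summits after C59. The restriction to −log10 p of 5.72 and the counts without Efna2 were chosen after seeing the data.

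With the replicate block the differences were −85 and 0 (exact paired permutation p = 0.5 and 1, where 0.5 is the smallest that 2 pairs allow). Deviations of same-numbered libraries correlated at −0.0036 for β-catenin and −0.041 for H3K27ac over genes. With 330 and 358 summits in the β-catenin C59 lists, most windows held none, so the β-catenin value says little about pairing. Whether same-numbered libraries were processed together was not tested. The 2 libraries per group limit every comparison, and the stricter limit of the C59 lists bears on the β-catenin comparisons.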
